A study of Mus musculus with 3 samples.

Results

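The 10 genes described here are interferon effectors of mouse cells: Ifit1, Ifit2 and Ifit3, Ifi27, Ifi27l2a and Ifi27l2b, and Ifi44, Ifi35, Rtp4 and Rsad2. They were taken as a named set chosen by their processed signals on these same 3 arrays, whose ratios were already known, so their values are a description and carry no test. They are 10 of 20821 genes that could be named, and 11 of 39429 probes carry them. Of the 10 genes, 9 have 1 probe and 1, Ifi27l2b, has 2. RNA was taken from tail-tip fibroblasts, a primary culture of skin connective tissue cells, on day 8 after Oct4, Sox2, Klf4 and c-Myc were introduced into every culture to start reprogramming. The groups were old p16-/- (donors aged 22 months, lacking p16), old WT (22 months) and young WT (2 months), with 1 one-colour array each. The labels give no strain or sex, do not say whether donors were pooled, and name no Cre or promoter for the p16 deletion. The p16 protein, encoded by Cdkn2a, holds cells back from division, and the series asks how age and p16 alter reprogramming intermediates.

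Interferons are secreted proteins that bind receptors on the cell surface and, through Jak kinases, Stat proteins and interferon regulatory factors, switch on a large set of genes. The products of these genes bind foreign RNA, alter membranes or make antiviral nucleotides, and fibroblasts are a classical cell type in which this response is studied. Several regulatory factors are themselves induced, so that part of the pathway appears both as a control layer and as a target.

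All values below are processed signals, which are background-subtracted spot intensities on a linear scale in arbitrary units, and log2 ratios between arrays after each array was scaled to its own 75th percentile. That percentile was 2058 on the old p16-/- array, 2051 on old WT and 2138 on young WT, and between 57.4% and 61.6% of 43020 spots were well above background. With a single array for each group no difference could be set against replicates, so precision is limited by array number throughout. The only error available is technical: the SD of a log2 ratio estimated from replicate spots of probes of like signal lay between 0.0583 and 0.154 for the 10 genes and covers neither donors nor cultures. Because the RNA is from whole cultures, fewer cells of a type and less RNA per cell cannot be told apart. A Cdkn2a probe read 28065 on old p16-/-, 65464 on old WT and 62705 on young WT, and since the gene also encodes Arf and the place of the probe relative to the deletion is not known here, it does not check the genotype. Eif2s3y, a Y-linked gene, was dim on both old arrays and read 6819 on young WT, and Xist read 1387 on old p16-/-, 1548 on old WT and 13.8, a dim value, on young WT. Sex-linked expression therefore separates both old arrays from the young one, and it cannot be told apart from age in any ratio over young WT. Of the 4 introduced factors, Klf4 and Myc were well above background on every array, Sox2 on old p16-/- alone (72.8), and Pou5f1 (Oct4) on none. Myc had log2 ratios of -1.03 for old p16-/- over old WT and -1.01 over young WT. Klf4 had -0.35 and -0.04 in the same comparisons. Whether these probes read the introduced copies is not known here.

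The 10 genes were lower on the old p16-/- array than on the old WT array. Of these, 9 were lower by at least 2-fold and none was higher by that much, where 6.61% of all 14691 measured genes were lower by at least 2-fold and 5.89% were higher. The median log2 ratio of old p16-/- over old WT was -3.58, an 11.98-fold lower level, against a median of 0.02 over all measured genes. Ifi35 was the 1 gene under 2-fold. Against young WT, old WT was higher by at least 2-fold for 4 of the 10 genes and lower by that much for none, where 2.92% of 14546 measured genes were higher and 3.16% lower.

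**Figure D1:**
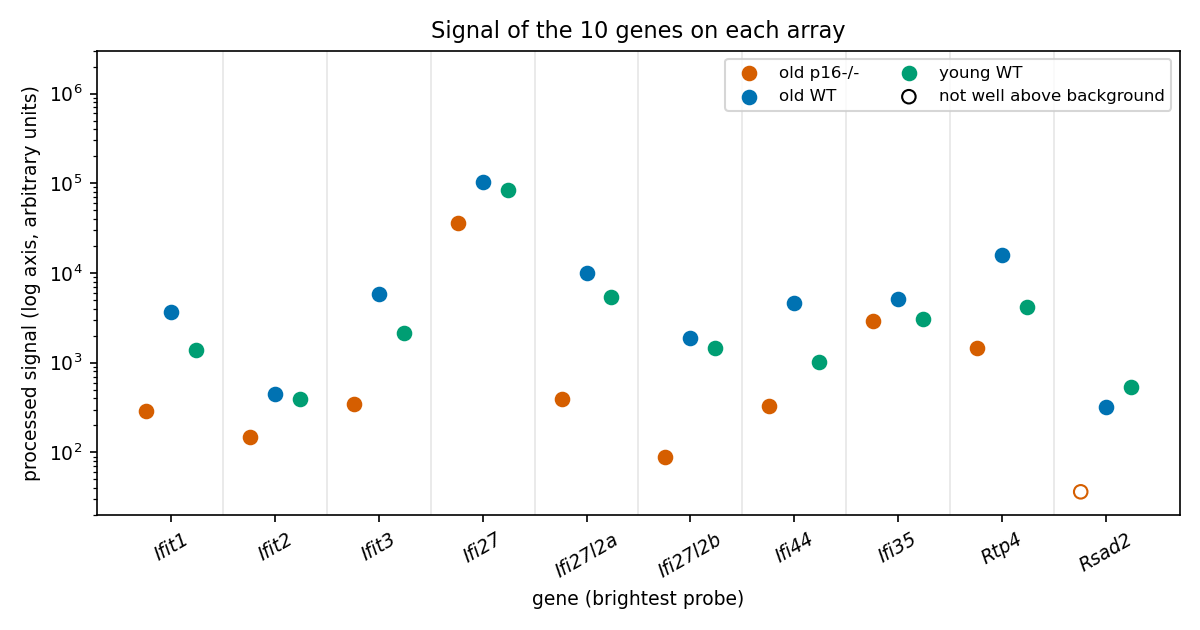
Processed signal (log axis, arbitrary units) of each of the 10 genes by its brightest probe on the old p16-/-, old WT and young WT arrays, 1 point per array, open where the probe was not well above background. The old p16-/- point is the lowest for all 10 genes, and the old WT point is the highest for 9, the exception being Rsad2.

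Ifit proteins bind viral RNA through helical repeats: Ifit1 recognises RNA caps that lack host methylation, Ifit2 and Ifit3 are related repeat proteins, and in human cells IFIT3 holds IFIT1 in a complex. Ifit1 read 288 for old p16-/-, 3689 for old WT and 1372 for young WT. Ifit3 had the same order of arrays, with 349 on old p16-/-, 5859.85 on old WT and 2156 on young WT. For Ifit2 the signals were 148 on old p16-/-, 449.7 on old WT and 389.6 on young WT. Both WT arrays were thus close together for Ifit2 and apart for Ifit1 and Ifit3, while old p16-/- lay below both for all 3 genes. The log2 ratio of old p16-/- over old WT was -3.68 ± 0.092 for Ifit1 (SD from replicate spots; 12.8-fold lower), -4.07 ± 0.089 for Ifit3 (16.8-fold lower) and -1.61 ± 0.13 for Ifit2 (3.04-fold lower). Old WT over young WT gave 1.49 ± 0.067 for Ifit1 and 1.502 ± 0.067 for Ifit3, 2.80-fold and 2.83-fold higher, and 0.27 ± 0.11 for Ifit2. The Ifit1 and Ifit3 ratios of old WT over young WT differed from each other by less than the spot SD, and so cannot be ordered.

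The promoters of Ifit1 and Ifit3 are printed because in each comparison both genes differed by at least 2-fold in the direction of the other, and both windows hold the same motif in 2 copies. They are the 250 bases before the start on GRCm38.p6, credited to RefSeq, with matches to GAAA, any 2 bases, GAAA in capitals. This direct repeat is the core of the interferon-stimulated response element, which the complex of Stat proteins and Irf9 binds; it contains the shorter interferon regulatory factor motif AANNGAAA, and both strands were searched.
Ifit1, chr19:34640639-34640888, plus strand: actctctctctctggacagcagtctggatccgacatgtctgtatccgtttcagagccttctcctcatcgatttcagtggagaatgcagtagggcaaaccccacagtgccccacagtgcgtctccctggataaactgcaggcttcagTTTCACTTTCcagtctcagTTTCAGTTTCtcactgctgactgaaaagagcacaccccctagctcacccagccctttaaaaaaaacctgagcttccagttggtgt
Ifit3, chr19:34583279-34583528, plus strand: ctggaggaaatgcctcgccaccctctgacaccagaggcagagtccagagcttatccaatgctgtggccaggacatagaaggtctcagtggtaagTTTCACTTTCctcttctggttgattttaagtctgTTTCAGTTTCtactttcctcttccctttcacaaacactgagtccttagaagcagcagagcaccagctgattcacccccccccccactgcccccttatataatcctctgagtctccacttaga
Matches in Ifit1 lie at -104 to -95 and at -85 to -76 from the start, and those in Ifit3 at -156 to -147 and at -122 to -113. All 4 matches read as the reverse complement, with TTTC in place of GAAA. In each promoter the upstream copy is the string TTTCACTTTC and the downstream copy TTTCAGTTTC. The repeat occurs in 3.44% of 32851 promoter windows of 300 bases (250 before and 50 after the start). The table holds 2 windows for Ifit2, and neither has this motif; 1 has the palindromic Stat motif TTCNNNGAA at -241 to -233, which 8.3% of windows hold.

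Ifi27 and its relatives encode small hydrophobic proteins of mitochondrial and nuclear membranes. Ifi27 read 35832 on old p16-/-, 103841 on old WT and 83132 on young WT. For Ifi27l2a the old p16-/- signal was 391, against 10047 on old WT and 5377 on young WT. Ifi27l2b read 88.4 on old p16-/-, 1904 on old WT and 1449 on young WT. In all 3 genes old p16-/- was lowest and old WT highest, with both WT arrays within 2-fold of each other. The log2 ratio of old p16-/- over old WT was -4.69 ± 0.088 for Ifi27l2a (25.8-fold lower), the lowest of the 10 genes, -4.43 ± 0.14 for Ifi27l2b (21.6-fold lower) and -1.54 ± 0.061 for Ifi27 (2.91-fold lower). The Ifi27l2b ratio was -3.34 with normexp background correction, a shift larger than its spot SD. Old WT over young WT was 0.96, 0.45 and 0.38 for Ifi27l2a, Ifi27l2b and Ifi27, so none of the 3 reached 2-fold in that comparison. The second Ifi27l2b probe read 21.4, 37.1 and 38.2 on old p16-/-, old WT and young WT, was well above background on none, and gives no ratio. The gene bodies of Ifi27 and Ifi27l2a overlap in the annotation, and whether their probes read each other's transcripts was not tested.

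Rsad2 encodes viperin, an enzyme that turns CTP into a chain-terminating nucleotide. Its signal was 36.4 on old p16-/-, not well above background, against 324 on old WT and 530.2 on young WT. It was the 1 gene of the 10 with its highest signal on young WT. Old p16-/- was at least 6.93-fold lower than old WT and at least 10.9-fold lower than young WT (log2 bounds of -2.79 and -3.44), where the dim array is entered at the lowest signal that is well above background on it or at the probe's own, whichever is higher. Both bounds depend on the background correction, and with normexp (a model-based correction) the log2 values were -1.92 and -2.49. Old WT over young WT was -0.65 ± 0.11. Its neighbour Cmpk2, a nucleotide kinase that makes CTP, had a signal of 23.9 on old p16-/-, not well above background, 349 on old WT and 320.4 on young WT, with a bound of -2.90 for old p16-/- over old WT and a ratio of 0.18 for old WT over young WT. The Rsad2 promoter is shown because it holds the response element core at -120 to -111 and a further AANNGAAA match at -106 to -99, both in capitals.
Rsad2, chr12:26456453-26456702, minus strand: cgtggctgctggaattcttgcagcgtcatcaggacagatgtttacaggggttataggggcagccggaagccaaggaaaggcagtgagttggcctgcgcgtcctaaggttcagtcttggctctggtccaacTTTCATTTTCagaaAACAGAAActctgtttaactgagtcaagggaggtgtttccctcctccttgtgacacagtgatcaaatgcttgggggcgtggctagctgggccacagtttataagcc

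Ifi44 is a cytoplasmic protein with a GTP-binding domain, and Rtp4 is a chaperone that carries some G protein-coupled receptors to the cell surface. Ifi44 read 329.8 on old p16-/-, 4606 on old WT and 1028 on young WT. Rtp4 read 1443 on old p16-/-, 16080.2 on old WT and 4199 on young WT. No other gene of the 10 had a larger ratio of old WT over young WT than these, at 2.22 ± 0.071 for Ifi44 (4.67-fold higher) and 2.00 ± 0.066 for Rtp4 (3.99-fold higher). Old p16-/- over old WT was -3.81 ± 0.091 for Ifi44 (14.0-fold lower) and -3.48 ± 0.067 for Rtp4 (11.2-fold lower). Ifi35 is a cytosolic protein that pairs with Nmi. Its signals were 2891 on old p16-/-, 5089.8 on old WT and 3105 on young WT, so that old WT stood above the other two, which were within the spot SD of each other at a ratio of -0.05 ± 0.075. Old p16-/- over old WT was -0.82 ± 0.069 (1.77-fold lower) and old WT over young WT was 0.77 ± 0.069 (1.71-fold higher) for Ifi35. Its partner Nmi read 1118, 1895 and 1043 on old p16-/-, old WT and young WT, with ratios of -0.77 and 0.92 in the same 2 comparisons and 0.16 for old p16-/- over young WT.

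The start region of Ifi44 holds AANNGAAA 3 times, in capitals, with 2 matches that share 1 base at -48. Ifi35 has none before its start but 1 match after it, shown within 30 bases from position 5 to position 34 on the plus strand of chromosome 11, and a TTCNNNGAA match at 8 to 16 that overlaps it. AANNGAAA is short and occurs in 23.9% of all promoter windows.
Ifi44, chr3:151749911-151750160, minus strand: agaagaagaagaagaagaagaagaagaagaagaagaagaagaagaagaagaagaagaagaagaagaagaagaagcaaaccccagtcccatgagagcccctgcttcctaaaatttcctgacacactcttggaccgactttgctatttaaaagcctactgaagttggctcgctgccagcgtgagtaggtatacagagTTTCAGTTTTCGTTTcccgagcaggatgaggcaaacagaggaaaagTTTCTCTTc
Ifi35, positions 5 to 34 after the start: gaattcacagAAATGAAAgtggaagtgagg
Windows were found for 6 of the 10 genes; Ifi27, Ifi27l2a, Ifi27l2b and Rtp4 had none in the table used. Of the 6, 3 hold the GAAA repeat and 5 hold AANNGAAA. In a list of other interferon-induced effectors, 18 of 38 genes with a window (47.4%) hold the repeat. A match is a string of letters and not a measured binding site.

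**Figure D2:**
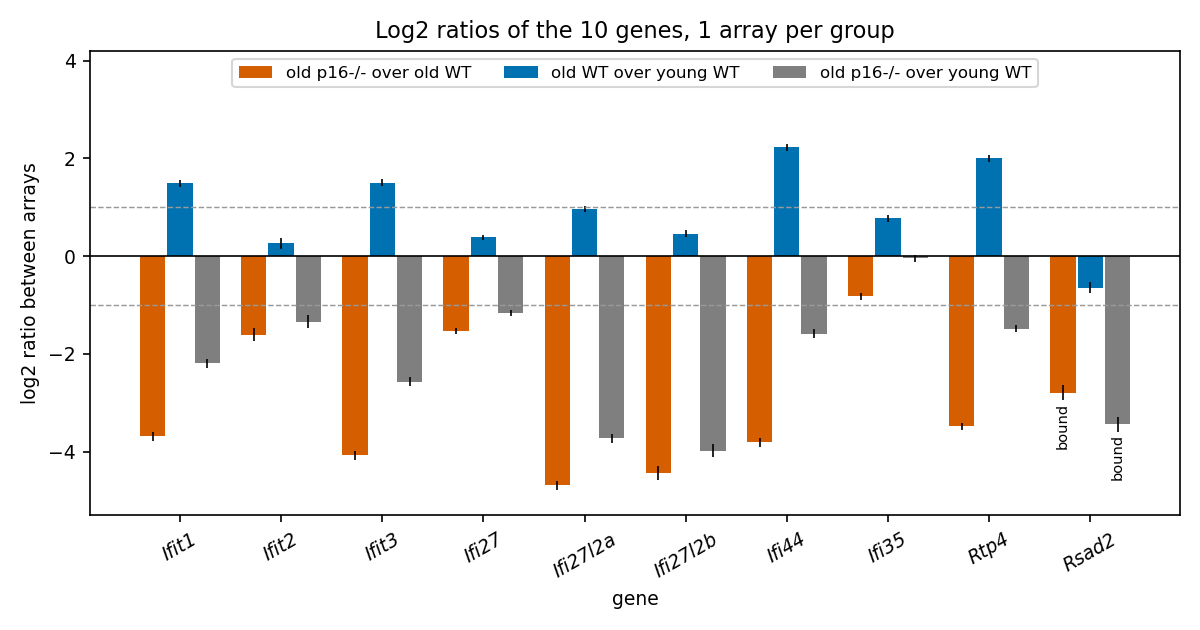
Log2 ratios of the 10 genes for old p16-/- over old WT, old WT over young WT and old p16-/- over young WT, 1 array per group, with bars of technical SD from replicate spots and dashed lines at 2-fold. All old p16-/- over old WT bars lie below 0, from -4.69 for Ifi27l2a to -0.82 for Ifi35, and 9 of 10 old WT over young WT bars lie above 0; bounds are marked for Rsad2.

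Across the 10 genes the full range of log2 ratios of old p16-/- over old WT was -4.69 to -0.82. The central 90% of all measured genes, a narrower measure than a full range, ran from -1.19 to 1.12. For old WT over young WT the full range of the 10 genes was -0.65 to 2.22, and the central 90% of all genes ran from -0.59 to 0.72. The median there was 0.87 (1.82-fold higher) for the 10 genes and -0.000241 for all. Old p16-/- also lay below young WT: 9 of 10 genes were lower by at least 2-fold, against 6.95% of 14279 measured genes, and none was higher, against 6.34%, with a median of -1.89 (3.71-fold lower) against 0.03 over all. Ifi35 was again the exception. With normexp the count was 8 of 10, as Ifit2 came to -0.99. By family, the median ratio of old p16-/- over old WT was -3.68 for the 3 Ifit genes, -4.43 for the 3 Ifi27 genes and -3.14 for the other four, and that of old WT over young WT was 1.49, 0.45 and 1.39. The Ifi27 genes thus had the lowest median in the first comparison and the lowest in the second. With only genes whose brighter array had a signal of at least 1000, 8 of the 10 remained, and 7 of them were lower by at least 2-fold on old p16-/- than on old WT (4.21% of all such genes were lower, 2.67% higher). By that limit 4 of 8 were higher on old WT than on young WT (1.17% of all were higher, 0.562% lower), and 7 of 8 were lower on old p16-/- than on young WT (4.19% of all were lower, 3.42% higher). The limit does not remove dim old p16-/- values, since a gene passes by its brighter array. Ifit1, Ifit3, Ifi27l2a, Ifi27l2b and Ifi44 passed only through a WT array, with old p16-/- signals below 1000. The ratios are not independent, since old p16-/- over old WT and old WT over young WT share the old WT array.

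Every probe of the 10 genes is spotted once, so each of their values on each array rests on a single spot. Among spots of replicated probes that were mostly dim, 69 of 1400 (4.93%) on the old p16-/- array passed as well above background, with signals as high as 870.4, and such spots cannot be recognised for a probe spotted once. The old p16-/- signals of Ifit1, Ifit2, Ifit3, Ifi27l2a, Ifi27l2b and Ifi44 are all below that value. Such spots reached 794.5 on old WT and 693.8 on young WT. The Ifit2 and Rsad2 signals are below these values on both WT arrays, so their ratios and bounds carry this limit on the WT side too. Ifitm3, an effector that blocks entry of viruses at endosomes and is spotted 10 times, gave a mean of 41006 ± 1557 on old p16-/-, 86164 ± 2877 on old WT and 70126 ± 2183 on young WT (SD over 10 spots of 1 array). Such spots repeat 1 RNA sample, so their SD covers neither donors nor cultures. Ifitm3 is not 1 of the 10 genes. Its log2 ratio was -1.08 for old p16-/- over old WT and 0.36 for old WT over young WT.

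Genes listed beside the 10 for a like name or family, or as a neighbour or partner, were mixed. Several share only the prefix Ifi with them, so the list is not a gene family. Of 18 listed, 16 were matched and 12 measured on the old arrays, of which 4 were lower by at least 2-fold on old p16-/- than on old WT and none higher. Their median was -0.75. Here and for the lists below, the shares over all measured genes were 6.61% lower and 5.89% higher on old p16-/- than on old WT. For old WT against young WT they were 2.92% higher and 3.16% lower, by the same 2-fold limit. Ifit3b, a close copy of Ifit3, read 158, 1625 and 678 on old p16-/-, old WT and young WT, and its ratios were -3.36 and 1.32 in the 2 comparisons. Whether the probes tell Ifit3 and Ifit3b apart was not tested. Ifi47, a GTPase, was lower at -1.77, and Cmpk2 and Ifitm3 are the other 2. Ifit1bl2 had a ratio of -0.46, Ifit1bl1 a bound of -0.16, and Rtp2, Ifi204, Ifi30, Ifitm1 and Ifitm2 had -0.76, -0.75, -0.07, 0.14 and 0.01. Ifi44l, Ifi213 and Rtp1 were well above background on no array, and Rtp3 on young WT alone. Between old WT and young WT, 1 of 13 measured genes of this list was higher by at least 2-fold and 1 lower, with a median of 0.19.

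**Figure D3:**
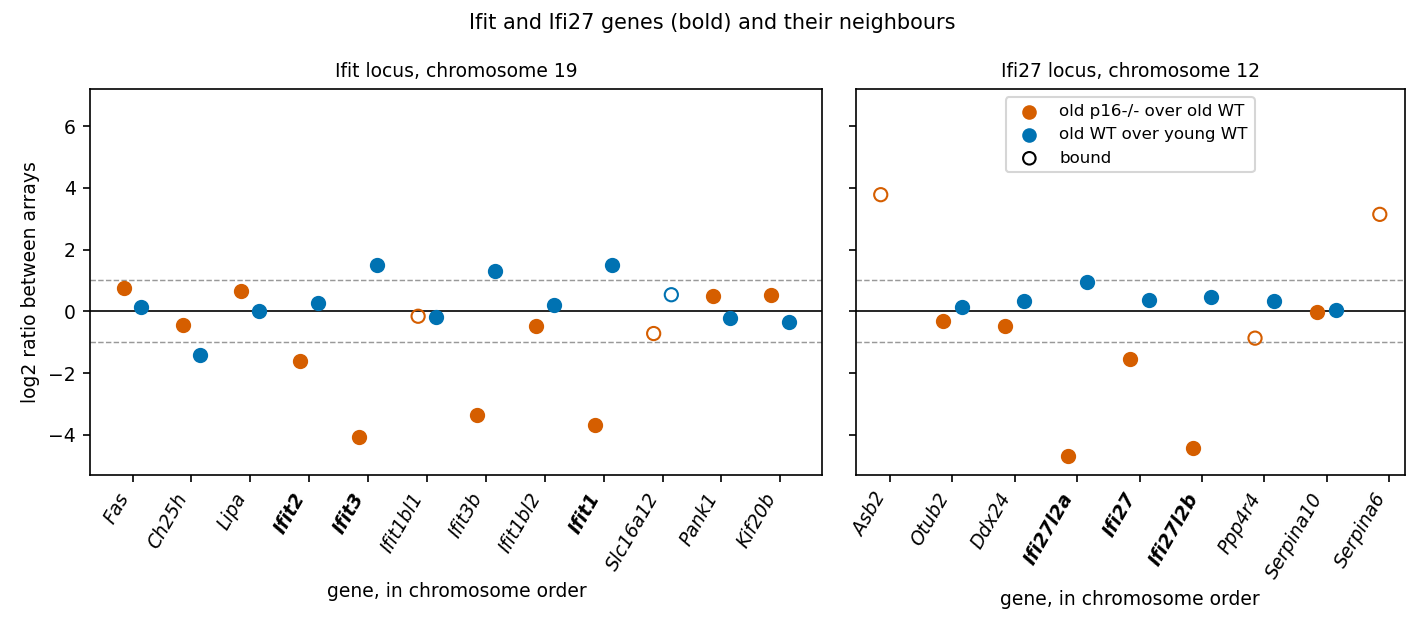
Log2 ratios of genes in chromosome order at the Ifit locus (left) and the Ifi27 locus (right), old p16-/- over old WT beside old WT over young WT, with open points for bounds and dashed lines at 2-fold. At the Ifit locus Ifit2, Ifit3, Ifit3b and Ifit1 lie below -1 for old p16-/- over old WT while Fas, Lipa, Pank1 and Kif20b lie above 0. Ch25h, Ifit1bl1, Ifit1bl2 and Slc16a12 lie between -1 and 0 in that comparison.

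The Ifit genes sit in a cluster on chromosome 19 and the Ifi27 genes in one on chromosome 12. Most of their measured neighbours had ratios or bounds under 2-fold between the old arrays. A bound gives the least difference, so a gene with a bound may differ by more. On either side of the Ifit genes, Fas, a death receptor, had a ratio of 0.76 for old p16-/- over old WT, Lipa 0.67, Pank1 0.50 and Kif20b 0.54. Ch25h had -0.45 and Slc16a12 a bound of -0.72, both lower on old p16-/-. Beside the Ifi27 genes, Otub2 had -0.32, Ddx24 -0.47, Serpina10 -0.02 and Ppp4r4 a bound of -0.87. The bounds for Asb2 and Serpina6 were 3.78 and 3.14, higher on old p16-/-. Over the 3 genes on each side of all 10, 31 of 39 neighbours were measured, of which 2 were higher and 3 lower by at least 2-fold on old p16-/- than on old WT. Of all measured genes, 5.89% were higher and 6.61% lower by that much. The median of the measured neighbours was -0.14. The 3 lower ones were Ifit3b, Cmpk2 and Sox11, a transcription factor next to Cmpk2 (-1.54). Leaving out listed interferon genes, 26 measured neighbours had a median of -0.06.

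Candidates were the 8901 genes well above background on each of the 3 arrays whose brightest array reached a signal of 1000, and the 8 nearest in pattern to the median of the 9 genes measured on all arrays were Apol9a, Apol9b, Ifit3b, Irf7, Irgm2, Ifih1, Bst2 and Pax1. Likeness was the distance in log2 units between levels on 3 arrays, each gene centred on its own mean, and so rests on 3 points. The distances ran from 0.125 for Apol9a to 0.365 for Pax1, against a median of 2.54 over all candidates. Apol9a read 2986 on old p16-/-, 32929.5 on old WT and 12129 on young WT, ratios of -3.47 and 1.501. Pax1, a skeletal transcription factor spotted 10 times, read 287, 2636 and 1395. Within the 9 genes, Ifit1 was nearest to their own median pattern (0.163) and Ifi35 farthest (1.99).

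The pathway upstream of the 10 genes was uneven. Of 9 measured ligands, 1, Ifng, was higher by at least 2-fold on old p16-/- than on old WT (124 and 42.5, a ratio of 1.54) and 1, Ifna2, was lower (a bound of -1.30). On young WT the Ifng probe was dim (21.6). Ligand signals that were well above background did not exceed 124 on old p16-/-, 133 on old WT and 239.6 on young WT. All are below the 870.4, 794.5 and 693.8 that single spots of dim probes reached on these arrays. Ifnb1 was above background on old WT alone, at 45.3, which gives no fold. The remaining measured ligands, Ifna1, Ifna5, Ifna12, Ifna14, Ifnab and Ifnl3, had ratios or bounds of -0.26, 0.21, -0.94, -0.15, -0.28 and -0.34 for old p16-/- over old WT. Ifna4, Ifna7, Ifna11, Ifna13, Ifna16, Ifne and Ifnk were above background on no array.

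None of the 6 receptor genes had a ratio or bound of 2-fold between the old arrays, though Ifnlr1, as a bound, may differ by more. The subunits of the type I receptor, Ifnar1 and Ifnar2, had ratios of 0.11 and -0.01 for old p16-/- over old WT, and those of the type II receptor, Ifngr1 and Ifngr2, -0.10 and -0.49. Il10rb was at -0.22, and Ifnlr1, with a bound of 0.79, was above background on old p16-/- alone.

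Of 10 measured kinases, Stats and regulatory factors, 3 were lower by at least 2-fold on old p16-/- than on old WT and none was higher. Irf7, which amplifies type I interferon production, read 89.7 on old p16-/-, 1018 on old WT and 335 on young WT, ratios of -3.51 and 1.66. Stat2 had -1.92 and 0.84, and Irf9, its partner, -1.56 and 0.81. Jak1, Jak2, Tyk2, Irf1, Irf2 and Irf3 lay between -0.19 and 0.15, and Irf5 had a bound of -0.52. Irf8 was above background on young WT alone (384), and Irf5 and Irf8 were lower by at least 2-fold on old WT than on young WT. Of 7 negative regulators, Usp18, which strips Isg15 from proteins and blocks the type I receptor, was the 1 lower gene, with 439.6 on old p16-/-, 9643 on old WT and 3064 on young WT, ratios of -4.46 and 1.71. Socs1 and Socs3, which inhibit Jak kinases, had -0.13 and 0.16, and the other 4 had ratios between -0.08 and 0.22.

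Among 15 measured sensors and adaptors, 4 were lower by at least 2-fold on old p16-/- than on old WT, namely the RNA sensors Ifih1 (-3.11), Dhx58 (-2.35) and Ddx58 (-2.04) and the nucleic acid sensor Zbp1 (-1.81). The same 4 were the ones higher by at least 2-fold on old WT than on young WT, between 1.09 and 1.20. The adaptors Mavs, Sting1 and Myd88 had ratios of -0.06, -0.51 and -0.31 for old p16-/- over old WT. Of 39 measured other effectors, 28 were lower by at least 2-fold on old p16-/- than on old WT and none was higher, the median being -1.86, and 15 were higher by at least 2-fold on old WT than on young WT and none was lower, with a median of 0.89. Isg15, a ubiquitin-like modifier, read 4766 on old p16-/-, 59455 on old WT and 12801.5 on young WT, ratios of -3.65 and 2.28. Oasl2 had -4.39 and 1.86, and Bst2, which tethers viruses to the cell surface, -3.10 and 1.47.

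**Figure D4:**
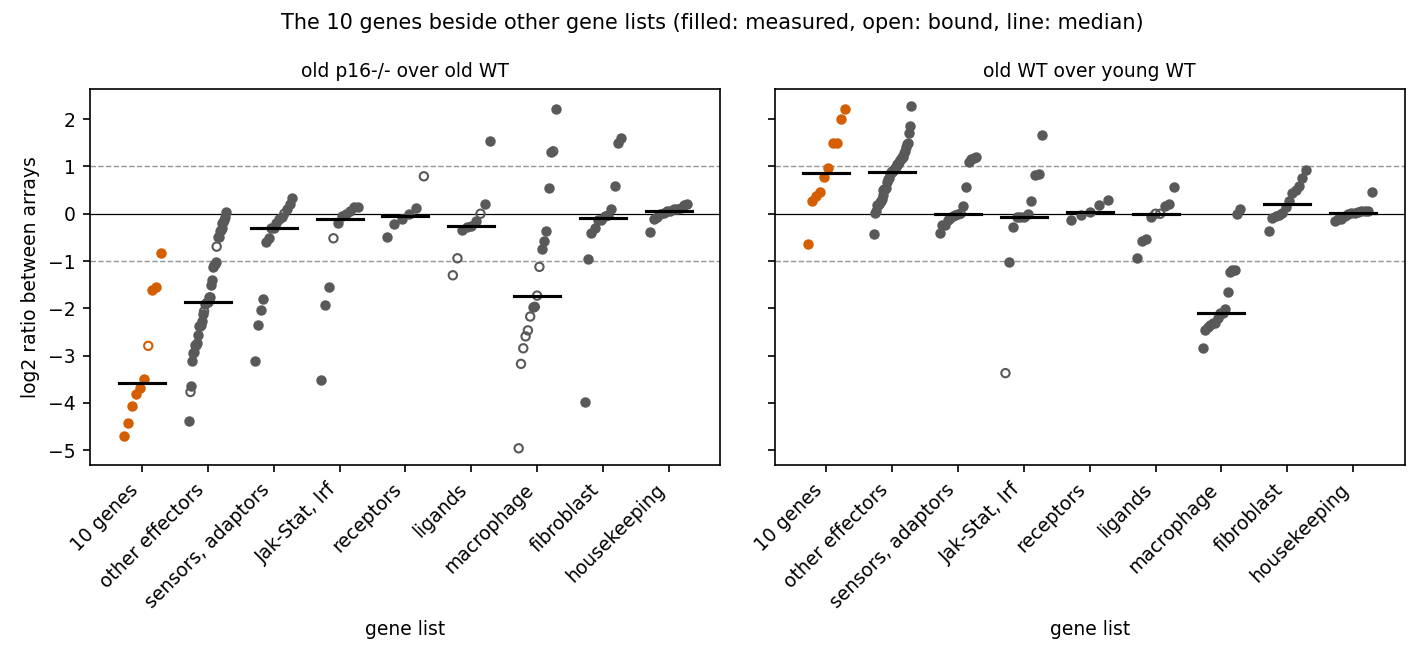
Log2 ratios of the 10 genes beside other gene lists, old p16-/- over old WT (left) and old WT over young WT (right), with a line at each median and open points for bounds. The medians for old p16-/- over old WT are -3.58 for the 10 genes, -1.86 for other effectors and -0.06 for receptors; the median of the macrophage markers is -1.73 on the left, with 3 of 17 at least 2-fold higher, and -2.10 on the right.

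Markers of other cell types also differed between the arrays. Of 17 matched macrophage and leukocyte markers, 10 were lower by at least 2-fold on old p16-/- than on old WT and 3 were higher, namely Mrc1 (2.22), Aif1 (1.31) and Ptprc (a bound of 1.32). On old p16-/- these 3 read 399, 186 and 89.9, each from 1 spot. All 3 signals are below the 870.4 that single spots of dim probes reached on that array. The median over the 17 markers was -1.73, and 10 of the 17 ratios are bounds. Between old WT and young WT, 14 of 16 were lower by at least 2-fold on old WT and none was higher, with a median of -2.10. Their summed signal was 18731 on old p16-/-, 27397 on old WT and 47562.5 on young WT, or 3797, 8325 and 27570.5 without Itgam, the largest. On old p16-/- 9 of the 17 were not well above background (Adgre1, Tyrobp, Lyz2, C1qa, C1qb, C1qc, Cd52, Ctss and Ms4a7), against 1 on each WT array. So the macrophage markers and the 10 genes were both lower on old p16-/- than on old WT, while on old WT against young WT the markers were lower and 9 of the 10 genes had ratios above 0. The part of these cells in the values of the 10 genes was not tested.

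Markers of fibroblasts were present throughout: all 12 were well above background on each array, with a summed signal of 1247890 on old p16-/-, 1374510 on old WT and 1347190 on young WT. Individual fibroblast markers differed between the old arrays, with Thy1 at -3.99, Pdgfra at 1.60 and Fap at 1.502 for old p16-/- over old WT, while Col1a1 and Vim were at -0.30 and -0.03. Of 14 markers of T, B, NK and plasmacytoid dendritic cells, 5 were well above background on each array, and 1 of the 5, Bst2, is itself an interferon-induced gene. Keratinocyte and endothelial markers numbered 7, 7 and 6 of 8 above background on old p16-/-, old WT and young WT, and none differed by 2-fold between the old arrays. The 12 housekeeping genes had a median of 0.06 for old p16-/- over old WT and 0.02 for old WT over young WT, and none reached 2-fold in either.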

How the data were processed

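Each of 3 samples was hybridised to a 1-colour Agilent array. The deposited scanner files hold linear intensities, written by Agilent Feature Extraction 11.5.1.1 per the file headers, and the processed signal used here is background-subtracted and detrended by that software. The deposited value table holds the same intensities, unscaled, uncentred and linear, equal to the processed signal within 0.0001 (relative) for 39030 of 39030 probes spotted once, with column medians of 132 for old p16-/-, 135 for old WT and 137 for young WT. The arrays shared 1 slide and 1 scan.

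Control spots (1377) and outlier-marked spots (267, 246 and 246 on old p16-/-, old WT and young WT) were left out, and no spot was saturated. Log2 signals were averaged per probe, and the array's 75th percentile over probes was subtracted. Accessions named 27502 of 39429 probes through a RefSeq table of GRCm38.p6 and left 11927 unnamed; as the probes were designed on another build, gene coordinates are not given, and promoter coordinates come with the promoter table. A gene was its brightest probe. It was measured in a comparison if any of its probes was well above background on either array, and the ratio is a bound if 1 was dim. Values were described against 2-fold, with no test. Replicate-spot SDs came from 399 probes spotted 10 times, using the 40 nearest in signal. The calculation was tested on simulated data.

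The members and lists were chosen with earlier results of these data known. Every member is named, as are the genes listed beside the members, ligands, receptors and signalling genes, up to 3 genes of each other list with the largest ratio of old p16-/- over old WT, and the 8 genes nearest in pattern. Further genes given as examples were chosen after their values were seen. One gene of the signalling list is not reported here and was left out of its counts. Of 190 list entries 176 were matched, and Ifi27l1, Ifi203, Ifna6, Ifna9, Ifna15, Ifnz, Ifnl2, Rigi, Tmem173 (matched as Ddx58 and Sting1), Oas1b, Mx1, Mx2, Ddx60 and Cd68 were not analysed here under those names. Alternatives were normexp with an offset of 50 (limma 3.58.1 in R 4.3.3, run on the median signal, as the files hold no mean signal), quantile, cyclic loess and median scaling, the value table, outlier spots kept, the mean of all probes, other background filters and, chosen after seeing the data, a signal of at least 1000. Python 3.11.15 with pandas 2.3.3 did the rest.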

Additional observations from a re-analysis of the deposited data

How the results depend on the processing

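No paired analysis was possible because each group has 1 array. The counts of genes at least 2-fold apart among the 10 stayed within 1.5 times under every alternative run. The median log2 ratio of old p16-/- over old WT was -3.58 and became -3.31 with normexp, -3.68 with genes above background on both arrays (9 genes) and, in an alternative chosen after seeing the data, -3.75 with a signal of at least 1000 (8 genes). For old p16-/- over young WT it was -1.89 and became -1.59 with normexp and -1.59 with genes above background on both arrays. For old WT over young WT it was 0.87 and became 1.22 with a signal of at least 1000. The filters leave fewer genes; the cause of the normexp shifts was not tested. Over 7 settings, 209 of 210 single-gene ratios kept their direction and their side of 2-fold, and Ifit2 for old p16-/- over young WT, with normexp, was -0.99. These settings are not separate checks, as several could hardly move the 10 genes. The mean of all probes left each of their ratios unchanged, and median scaling shifts all ratios of a comparison alike. The value table and the outlier setting used the same single-spot signals and gave nearly the main ratios. The widest moves were those of Ifi27l2b (-4.43 to -3.34) and Rsad2 (-2.79 to -1.92) for old p16-/- over old WT, and of the same genes (-4.00 to -2.92 and -3.50 to -2.49) for old p16-/- over young WT.

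Among all genes, those higher and lower by at least 2-fold on old p16-/- than on old WT numbered 865 and 971, against 563 and 655 with normexp, 551 and 667 above background on both arrays, 1300 and 1619 without a filter, and 236 and 372 with a signal of at least 1000. For old WT over young WT the counts were 425 and 460, against 256 and 266, 237 and 219, 905 and 787, and 102 and 49. For old p16-/- over young WT they were 906 and 993, against 603 and 700, 562 and 648, 1439 and 1507, and 303 and 372. Signal near background and single spots limit the dim values.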

Other observations

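The direct repeat of GAAA with any 2 bases between its copies was counted in the promoter windows of measured genes. Of 14691 genes measured for old p16-/- over old WT, 11662 had a window, and only these enter the shares. The repeat occurred in 59 of 728 genes (8.1%) that were lower by at least 2-fold on old p16-/- than on old WT, leaving out the 10 described genes, against 23 of 655 (3.51%) that were higher and 439 of 11662 (3.76%) of all measured genes with a window. AANNGAAA occurred in 32% of the lower genes, 25.6% of the higher and 21.8% of all, and TTCNNNGAA in 7.97%, 10.7% and 8.57%. The other listed interferon-induced genes were not left out. Of 39 measured other effectors 28 were lower by that limit, and 18 of 38 of that list with a window hold the repeat. All these are shares of letters in 300-base windows, with no test.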
